A study of Homo sapiens with 6 samples.

Results

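The LY6/uPAR genes described here are PSCA, LY6K, LY6E, LY6D, CD59, LYPD3 and LYPD6B, 7 of the 34486 genes with a value in these libraries. They were picked by name as genes for glycosylphosphatidylinositol (GPI)-anchored proteins of the LY6 family. The urokinase receptor gene PLAUR and other genes of the family, such as the GPI-anchored LYNX1, were left out. The choice was made with the siPDCD4 against siCT values of these libraries known. The members were part of the fit over all genes, but that contrast is given for them as a description and their calls support nothing. RNA came from MCF10A, an immortalised, non-tumorigenic line of human breast epithelial cells, wild type in genotype in all 6 libraries. In 3 libraries (siPDCD4) the RNA-binding protein and tumour suppressor PDCD4 had been silenced, and 3 libraries (siCT) came from cells given a control siRNA. Both siRNAs were reverse-transfected at 10 nM and the cells were taken after 48 h. The study asked what PDCD4 does in cells of healthy origin, cell adhesion included. All values are from 1 cell line and 1 time point, the control siRNA is not described further in the sources used, and nothing says whether the replicates were separate cultures, so any p-value measures only the spread between these libraries.

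Proteins of the LY6/uPAR family are small and rich in cysteine, and fold into a flat domain with 3 loops, the fold of snake three-finger toxins. Most are held at the outer leaflet of the plasma membrane by a GPI anchor, which is made in the endoplasmic reticulum and put on in exchange for a C-terminal peptide. Several members act on other surface proteins, such as complement, nicotinic acetylcholine receptors or proteases. In squamous and glandular epithelia a number of them mark steps of differentiation, and many are studied as surface antigens of tumours.

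The libraries held between 15547679 and 18619778 estimated counts in siPDCD4 and between 13410441 and 21828931 in siCT. PDCD4 itself lay at 9.16, 7.44 and 8.63 CPM (normalised counts-per-million) in siPDCD4 replicates 1, 2 and 3, against 90.5, 89.1 and 61.1 CPM in siCT replicates 1, 2 and 3, a log2 fold change of -3.25 ± 0.17 (SE). The knockdown therefore held in every library labelled with it. siCT replicate 3 stood apart on the first principal component (29.3% of the variance), at 30.6 against at most 8.65 in the other 5 libraries. Its total was the smallest of the 6, and protein-coding transcripts took 66.1% of its counts, against at least 69.3% in each other library. All 11 epithelial markers were detected at a mean of at least 1 TPM (transcripts-per-million), with a summed level of 2298 to 2847 TPM in siPDCD4 and 2264 to 2831 TPM in siCT. Markers of fibroblasts, endothelium, immune cells and adipocytes summed to at most 2.40 TPM each in any library. The 4 luminal hormone-responsive markers, of which PGR was at 0, summed to 4.55 to 5.18 TPM in siPDCD4 and 2.71 to 4.08 TPM in siCT, without overlap, and their part in the results below was not tested. No marker that was tested passed the FDR of 5% in edgeR.

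PSCA was the member with the largest difference. The gene encodes prostate stem cell antigen, a GPI-anchored protein named for its expression in prostate and found in other epithelia such as stomach and bladder. It was counted at 17.6, 19.7 and 17.3 CPM in siPDCD4, against 31.6, 35.9 and 38.4 CPM in siCT. All siPDCD4 libraries thus lay below all siCT libraries, and the spread within a group was much smaller than the distance between them. The means were 18.2 ± 1.30 CPM in siPDCD4 and 35.3 ± 3.45 CPM in siCT (SD, n = 3 each), a log2 fold change of -0.95 ± 0.12 (SE) and a difference of -48.4% in mean CPM. The estimated counts behind these levels were 322, 291 and 269 in siPDCD4, against 644, 640 and 461 in siCT, so counting error is small beside the difference. In this bulk RNA, fewer cells with PSCA and less PSCA RNA per cell cannot be told apart. Without siCT replicate 3 the log2 fold change was -0.89 ± 0.12, and without siPDCD4 replicate 1 it was -0.93 ± 0.15.

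Of the 7 members, 5 passed the filter on low counts and were tested with all other genes. PSCA alone passed an FDR of 5% in edgeR, in the lower direction, and without siPDCD4 replicate 1 it did not (adjusted p = 0.0524). Of the 13047 genes tested, 56 passed, which is 0.429%, and the 34 that were lower in siPDCD4 were 0.261%. Since the members were picked with this contrast known, nothing is read from their count. Among the 5 tested members, the log2 fold change was negative for 4 and positive for 1, with a median of -0.21. Over all tested genes 6697 lay below and 6350 above 0, with a median of -0.005.

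**Figure D1:**
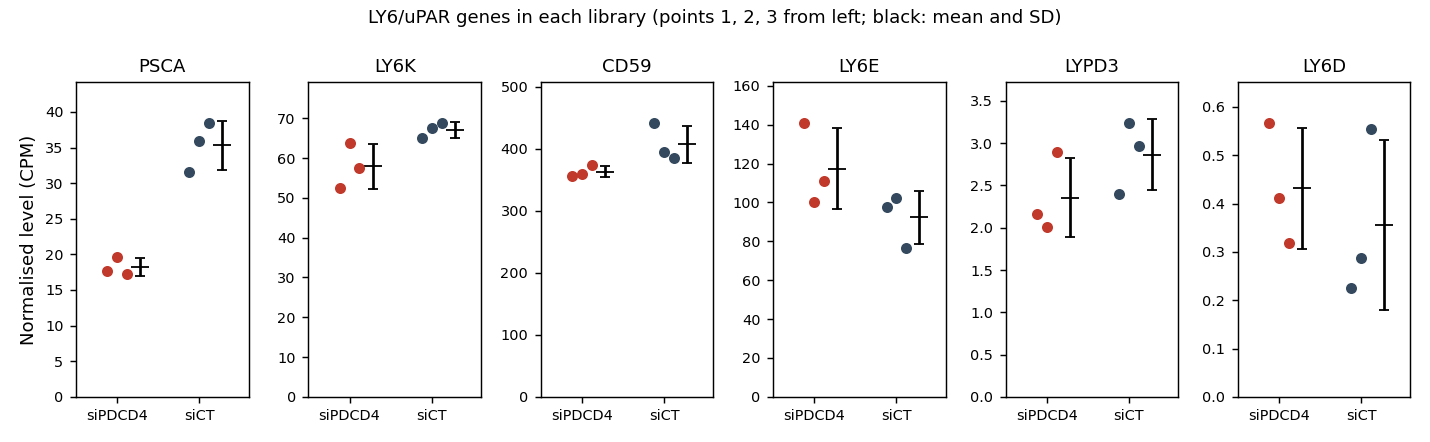
Normalised level (CPM, vertical axes from 0, scaled for each gene) of 6 LY6/uPAR genes in the 3 siPDCD4 libraries (left in each panel) and the 3 siCT libraries (right), with points for replicates 1, 2 and 3 from left and the mean and SD in black. PSCA lies between 17.3 and 19.7 CPM in siPDCD4 and between 31.6 and 38.4 CPM in siCT, while the groups overlap for LY6E, LYPD3 and LY6D.

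The neighbouring gene LY6K encodes a GPI-anchored protein of the male germ line that is also made by many tumours. Its levels were 52.5, 63.8 and 57.6 CPM in siPDCD4, against 64.9, 67.7 and 68.7 CPM in siCT, with a log2 fold change of -0.21 ± 0.10. The groups did not overlap in CPM, although siPDCD4 replicate 2 lay just below siCT replicate 1. In TPM, which scales each library to a fixed sum and carries no TMM factor, they did: 37.5, 45.4 and 40.6 TPM in siPDCD4 against 44.5, 49.6 and 46.9 TPM in siCT.

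CD59 encodes protectin, the GPI-anchored inhibitor that stops assembly of the complement membrane attack complex on a cell's own membrane. It was the most abundant member, at 356, 360 and 374 CPM in siPDCD4 and 441, 395 and 385 CPM in siCT. Its log2 fold change was -0.16 ± 0.08, and the highest siPDCD4 library lay just below the lowest siCT library. In TPM the groups overlapped, at 241, 243 and 250 in siPDCD4 against 286, 274 and 249 in siCT. Without siCT replicate 1, the library with the most CD59, the log2 fold change was -0.10 ± 0.08. PSCA, LY6K and CD59 were the 3 members whose groups did not overlap in CPM, a pattern seen in 13.9% of all tested genes.

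LY6E, an interferon-inducible GPI-anchored protein that limits the entry of coronaviruses, was the member on the other side of 0. It had 140.7, 100.4 and 111.1 CPM in siPDCD4, against 97.9, 102.5 and 76.7 CPM in siCT, with a log2 fold change of 0.34 ± 0.14. The groups overlapped, since siPDCD4 replicate 2 lay below siCT replicate 2. The value leaned on 2 libraries: it was 0.19 ± 0.14 without siPDCD4 replicate 1, the highest, and 0.23 ± 0.13 without siCT replicate 3, the lowest. Only 1 of the 15 transcripts annotated for LY6E was matched in these files, the reference transcript LY6E-201, and the other 14 were not analysed here. Where reads from them were counted was not tested.

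LYPD3, also called C4.4A, is a GPI-anchored protein of the suprabasal layers of squamous epithelium. It was low, with 39, 29 and 47 estimated counts in siPDCD4 and 50, 54 and 37 in siCT. These gave 2.17, 2.01 and 2.89 CPM in siPDCD4 against 2.40, 3.23 and 2.96 CPM in siCT. The groups overlapped and the log2 fold change of -0.28 ± 0.28 was no larger than its SE. It was -0.44 without siPDCD4 replicate 3, -0.18 without siPDCD4 replicate 2 and -0.18 without siCT replicate 2. LY6D, known as a surface antigen of keratinocytes, had 9, 6 and 6 counts in siPDCD4 and 5, 6 and 5 in siCT, or 0.566, 0.411 and 0.318 CPM in siPDCD4 against 0.226, 0.287 and 0.555 CPM in siCT. It did not pass the filter on low counts, its groups overlapped, and a difference was not detectable at this depth.

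LYPD6B, a relative of the surface protein LYPD6, had 0 counts in all 6 libraries over all 11 of its transcripts. A count of 0 allows up to 3 counts, which is 0.161 to 0.193 CPM of the unscaled total in siPDCD4 libraries and 0.137 to 0.224 CPM in siCT libraries, for counting error only. No fold change is given. Its close relative LYPD6, the next protein-coding gene on chromosome 2, was detected at 1.52, 1.55 and 1.25 CPM in siPDCD4 and 1.58, 1.48 and 1.05 CPM in siCT.

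The RefSeq table of promoters used here matched 3 members, CD59, LYPD3 and LYPD6B, which are the most abundant member, a low one and the undetected one. Windows of these 3 are shown to set their start sites beside their levels. Each runs from 250 bases before to 50 bases after a RefSeq start site on GRCh38.p14, 5′ to 3′ on the gene's strand. CD59 is given at its upstream start (chr11:33736430-33736729, minus strand) and at a start further down the gene (chr11:33722678-33722977, minus strand). LYPD3 is at chr19:43465559-43465858 (minus strand) and LYPD6B, at 1 of its start sites, at chr2:149077272-149077571 (plus strand). The genes themselves span chr11:33703010-33736479 (CD59), chr19:43460787-43465608 (LYPD3) and chr2:149038107-149215262 (LYPD6B) in GENCODE release 44. Capitals mark matches on either strand to the GC box GGGCGG, the TATA box TATAAA and the AP-1 motif TGANTCA.
CD59 upstream: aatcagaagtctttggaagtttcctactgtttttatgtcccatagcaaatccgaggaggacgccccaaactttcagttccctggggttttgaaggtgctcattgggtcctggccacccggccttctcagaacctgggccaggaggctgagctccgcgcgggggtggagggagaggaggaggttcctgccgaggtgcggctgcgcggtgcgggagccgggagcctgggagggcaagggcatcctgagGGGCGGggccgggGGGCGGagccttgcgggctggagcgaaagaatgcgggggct
CD59 downstream: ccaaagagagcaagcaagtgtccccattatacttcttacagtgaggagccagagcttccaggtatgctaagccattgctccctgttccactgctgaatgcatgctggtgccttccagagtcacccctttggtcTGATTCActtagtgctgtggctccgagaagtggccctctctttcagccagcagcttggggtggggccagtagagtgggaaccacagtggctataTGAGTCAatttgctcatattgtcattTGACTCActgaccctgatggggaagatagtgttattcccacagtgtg
LYPD3: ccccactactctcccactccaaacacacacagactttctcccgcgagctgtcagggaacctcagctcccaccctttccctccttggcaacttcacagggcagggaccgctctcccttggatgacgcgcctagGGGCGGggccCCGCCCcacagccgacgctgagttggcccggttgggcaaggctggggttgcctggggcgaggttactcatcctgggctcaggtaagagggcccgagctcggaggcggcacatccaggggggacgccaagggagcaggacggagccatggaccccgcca
LYPD6B: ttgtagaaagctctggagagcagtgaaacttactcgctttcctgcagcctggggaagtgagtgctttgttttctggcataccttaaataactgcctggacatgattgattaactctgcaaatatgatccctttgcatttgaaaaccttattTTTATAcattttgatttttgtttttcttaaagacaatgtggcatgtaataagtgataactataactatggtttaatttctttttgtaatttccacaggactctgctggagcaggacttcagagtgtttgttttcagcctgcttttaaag
The upstream CD59 window held 18 CpG dinucleotides at 64.3% G and C, with 2 GC boxes, and the LYPD3 window 17 CpG at 67.0%, also with 2. The downstream CD59 window held 1 CpG, no GC box and 3 AP-1 motifs, and the LYPD6B window 1 CpG at 36.3% with 1 TATA box. These features differed between start sites of 1 gene. A second LYPD6B window (chr2:149117924-149118223) had 49.3% G and C, 1 GC box and no TATA box, and the LYPD6B start shown is not that of the reference transcript. Another downstream CD59 window (chr11:33722900-33723199) had no AP-1 motif. The upstream CD59 start shown is not that of the reference transcript either. That transcript starts at chr11:33736423, and the window of that start (chr11:33736374-33736673) had 22 CpG at 69.0% G and C, with 2 GC boxes. Over 35116 promoters of the same length the median was 14 CpG and 58.7% G and C. Among them 45.0% held a GC box, 11.5% a TATA box and 7.71% an AP-1 motif. A match of letters is no evidence of binding, and the LYPD3 and CD59 upstream windows are alike in these features although the genes differ widely in level.

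Transcripts that start within 100 bases of the upstream CD59 start carried nearly all of its counts. They held 98.7%, 99.0% and 99.1% in siPDCD4, against 99.4%, 99.1% and 98.3% in siCT. Transcripts from the downstream start shown above held between 0.043% and 0.471% in siPDCD4 and between 0.063% and 0.412% in siCT. Use of the upstream start was thus nearly complete in both groups, as far as Salmon could assign reads between transcripts sharing most exons.

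Members could be set side by side per length in TPM. In siPDCD4 the order was CD59 (244.5 ± 4.41 TPM), LY6E (113.1 ± 20.8), LY6K (41.2 ± 3.97), PSCA (21.8 ± 1.62), LYPD3 (1.48 ± 0.29), LY6D (0.64 ± 0.19) and LYPD6B at 0 TPM. In siCT it was the same, with CD59 at 269.8 ± 19.2 TPM, LY6E at 87.9 ± 15.6, LY6K at 47.0 ± 2.51, PSCA at 41.7 ± 4.49, LYPD3 at 1.78 ± 0.32, LY6D at 0.52 ± 0.24 and LYPD6B at 0 (SD, n = 3 each). No neighbours in the order had overlapping libraries, but LY6K and PSCA nearly met in siCT, where the lowest LY6K library had 44.5 TPM and the highest PSCA library 44.4 TPM. Measured against all tested genes, CD59 was above 97.7% of them, LY6E above 94.0%, LY6K above 85.5%, PSCA above 79.4%, LYPD3 above 18.2% and LY6D above 8.81%.

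LY6K and PSCA were the neighbours closest in the order, with a ratio of means of 1.89 in siPDCD4 and 1.13 in siCT. Other neighbours also differed in ratio between the groups. CD59 stood at 2.16 times LY6E in siPDCD4 and 3.07 times in siCT, and PSCA at 14.7 and 23.4 times LYPD3. LY6K stood at 1.76, 1.92 and 1.97 times PSCA in TPM in siPDCD4, against 1.22, 1.12 and 1.06 times in siCT. With only protein-coding transcripts summed, PSCA ranked above LY6K in siCT, so their order there depends on which transcripts are counted. PSCA made up 4.85%, 5.76% and 4.90% of the summed TPM of the members in siPDCD4, against 7.93%, 9.40% and 10.7% in siCT. LY6E made up 31.1%, 23.6% and 25.3% in siPDCD4 and 19.8%, 21.5% and 17.2% in siCT. Both sets of shares were separate between the groups, in opposite directions, and shares of 1 sum are not independent of each other. For LY6E only the share was separate. Its own TPM overlapped, with 96.8 in siPDCD4 replicate 2 and 101.7 in siCT replicate 2.

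PSCA, LY6K, LY6D and LY6E lie within 354 kb on chromosome 8 (GRCh38, GENCODE release 44), in a stretch with 14 protein-coding genes. PSCA spans chr8:142670308-142682725 and LY6K chr8:142700111-142705127, both on the plus strand with 17386 bases between them. LY6D lies at chr8:142784882-142786539 on the minus strand and LY6E at chr8:143017982-143023832 on the plus strand. Of the other genes of the stretch SLURP1, LYPD2, LYNX1-SLURP2, SLURP2, GML, CYP11B1 and CYP11B2 were at 0 counts in every library. THEM6, next to LY6K, had 25.6, 29.9 and 18.5 CPM in siPDCD4 against 23.7, 30.8 and 25.0 CPM in siCT, and the groups overlapped (log2 fold change -0.11 ± 0.18, adjusted p = 0.965 in edgeR). Runs of detected and undetected genes thus alternated along the stretch. The genes at 0 and LY6D were not tested, and no tested gene of the stretch other than PSCA passed the FDR of 5% in edgeR.

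**Figure D2:**
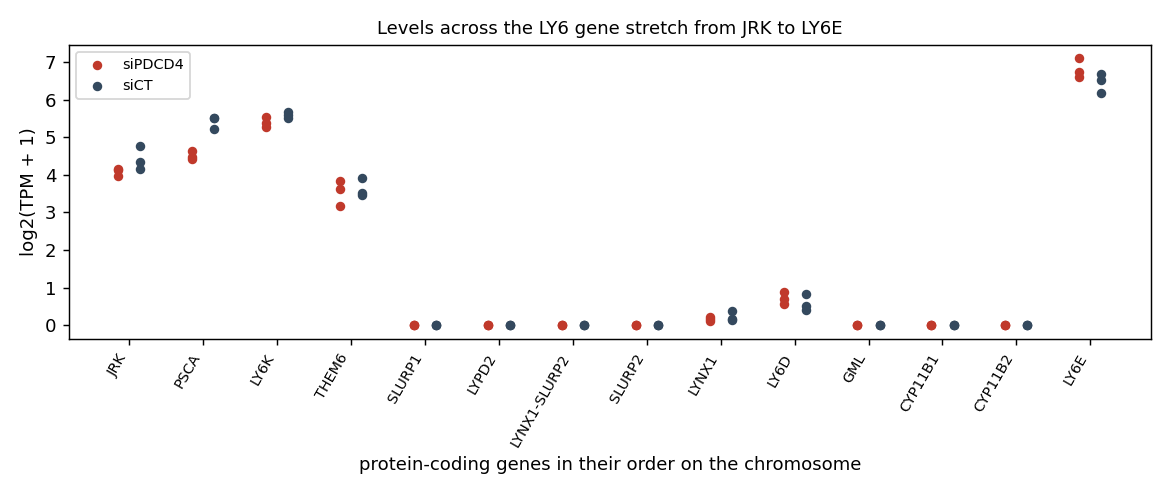
Level (log2(TPM + 1), vertical axis) of the 14 protein-coding genes from JRK to LY6E, in their order along the chromosome, with 3 siPDCD4 libraries left and 3 siCT libraries right for each gene. The 7 genes at 0 lie between THEM6 and LY6E, as do LYNX1 and LY6D, which were detected at a low level. PSCA is the gene whose groups are most clearly apart.

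JRK, on the opposite strand, shares 367 exon bases with PSCA. It had 44.8, 51.2 and 52.2 CPM in siPDCD4 against 53.6, 58.1 and 84.3 CPM in siCT, with a log2 fold change of -0.40 ± 0.16 (adjusted p = 0.503 in edgeR). The kit marks strand, but the sources do not say whether Salmon used it, so reads in the shared bases may have been split between PSCA and JRK. The fold changes of both genes were below 0, that of PSCA more than JRK's. For both, the groups did not overlap in CPM, as in 13.9% of all tested genes. The part of shared reads was not tested. CD59 likewise shares 629 exon bases with ENSG00000284969, a gene on the same strand with 2.45, 1.38 and 2.38 CPM in siPDCD4 and 3.24, 3.20 and 2.56 CPM in siCT. The groups of ENSG00000284969 did not overlap either, with a log2 fold change of -0.53 ± 0.30 (adjusted p = 0.730 in edgeR). FBXO3, on the other side of CD59 and the gene of an F-box protein, had a log2 fold change of 0.02 ± 0.14.

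Among other neighbours, LYNX1, which lies 7072 bases from LY6D and is a GPI-anchored modulator of nicotinic receptors, had 6 to 15 counts in siPDCD4 and 6 to 11 in siCT. For PHLDB3 beside LYPD3 the log2 fold change was 0.76 ± 0.40 (adjusted p = 0.682), and for the kinesin gene KIF5C beside LYPD6B it was 0.29 ± 0.30 (adjusted p = 0.918). TEX101, a germ cell LY6/uPAR gene beside LYPD3, had 1.1 counts in 1 siCT library, and LY6S beside LY6E was at 0. TEX101 and LY6S were too low to be tested, and none of the other neighbours named here passed the FDR of 5% in edgeR.

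One transcript carried PSCA. The reference transcript PSCA-201, 982 bases long, held 92.7%, 94.2% and 90.8% of the gene's counts in siPDCD4, against 93.7%, 95.2% and 87.8% in siCT. The shares overlapped, so the lower PSCA level was a lower level of this transcript. LY6K was spread over 4 transcripts: LY6K-201 held 49.6%, 47.2% and 47.8% in siPDCD4 against 51.6%, 50.5% and 50.4% in siCT, and LY6K-203 held 23.0% ± 4.36 in siPDCD4 and 19.7% ± 0.73 in siCT. LY6K-205 (15.6% in both groups) and LY6K-204 (12.3% in siPDCD4, 12.7% in siCT) held most of the rest.

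CD59 was divided mainly among 4 protein-coding transcripts. The one of 1970 bases held 36.7% ± 1.14 in siPDCD4 and 35.6% ± 1.01 in siCT, and that of 1193 bases 21.8% ± 1.41 in siPDCD4 and 21.0% ± 1.63 in siCT. The longest and reference transcript, of 7563 bases, held 25.0%, 24.9% and 26.7% in siPDCD4, against 27.5%, 26.9% and 30.3% in siCT, and the groups all but touched. The shortest of the 4, of 678 bases, held 13.1% ± 0.55 in siPDCD4 and 12.7% ± 0.87 in siCT. The reference transcript of LYPD3 held all of its counts except in siCT replicate 2, and the few LY6D counts do not allow shares.

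**Figure D3:**
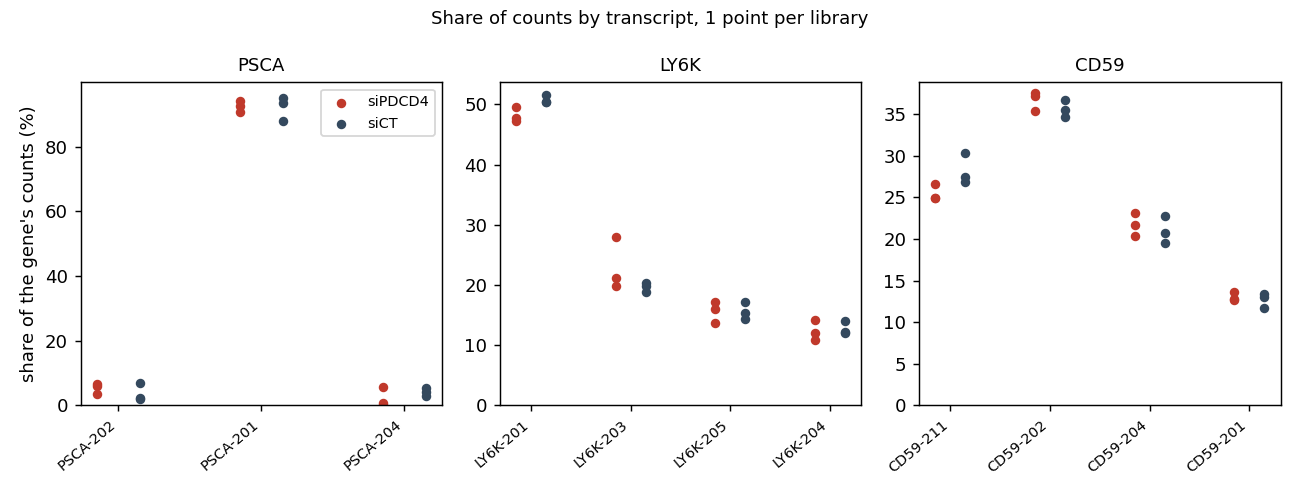
Share of the gene's estimated counts (%, vertical axis from 0) held by each transcript with a mean of at least 3% in either group, for PSCA, LY6K and CD59, with 1 point per library, siPDCD4 left and siCT right. PSCA-201 holds about the same share in both groups, and no transcript of LY6K or CD59 is the main one in only 1 group.

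Of the 29 other LY6/uPAR family genes, 16 were at 0 in every library and 5 passed the filter. None of the 5 passed an FDR of 5% in edgeR, DESeq2 or limma-voom, and 0 had an unadjusted p under 0.05 in edgeR. PLAUR, the GPI-anchored receptor of urokinase, was the most abundant, at 20.2, 21.2 and 20.0 CPM in siPDCD4 against 16.6, 18.1 and 18.4 CPM in siCT. Its groups did not overlap, and its log2 fold change of 0.21 ± 0.12 (adjusted p = 0.718) had the sign opposite to that of PSCA. LY6G5B (0.21 ± 0.49), LYPD6 (0.05 ± 0.32) and LYPD5 (-0.01 ± 0.40) were at most 1.21 TPM in any library. Among the 10 tested genes of the family PSCA thus had the fold change farthest from 0, as a description.

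**Figure D4:**
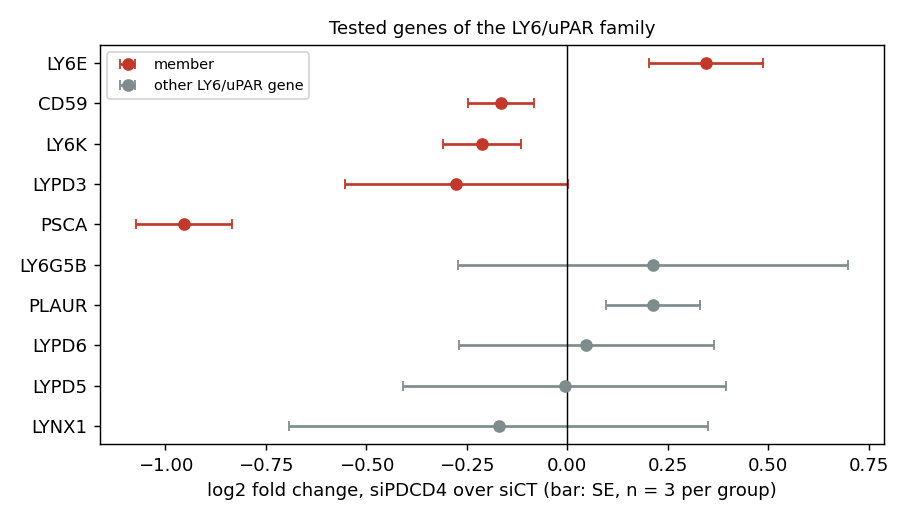
Log2 fold change of siPDCD4 over siCT (horizontal axis) with its SE (bars, n = 3 per group) for the 5 tested members (red) and the 5 other tested LY6/uPAR genes (grey). PSCA at -0.95 is farthest from 0, and the other 9 genes lie between -0.28 and 0.34.

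Genes that make and trim the GPI anchor were measured because every member needs them. All 24 measured genes of anchor synthesis and transfer were tested, with 14 above and 10 below 0 and a median log2 fold change of 0.03, against -0.005 over all tested genes. None passed an FDR of 5% in edgeR, DESeq2 or limma-voom, and 0 had an unadjusted p under 0.05. PIGS, a subunit of the transamidase that attaches the anchor, had -0.18 ± 0.10 (adjusted p = 0.713), and DPM1, which makes the mannose donor, 0.16 ± 0.10 (adjusted p = 0.762). Of 14 tested genes for remodelling, export and cleavage of the anchor, 5 were above and 9 below 0, with a median of -0.06, none passed by any of the 3 tools and 0 had an unadjusted p under 0.05. MPPE1, a phosphodiesterase that trims the anchor, had -0.44 ± 0.21 (adjusted p = 0.591), and GDPD5, which cleaves it, -0.34 ± 0.18 (adjusted p = 0.712).

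Other GPI-anchored surface proteins were represented by 42 tested genes, with 22 above and 20 below 0 and a median of 0.02. None passed an FDR of 5% in edgeR or limma-voom and 1 did in DESeq2. Of the 42, 6 had an unadjusted p under 0.05 in edgeR, against 8.62% of all tested genes. CD24, a mucin-like adhesion molecule, was at 204.8, 207.5 and 210.0 CPM in siPDCD4, against 278.5, 279.6 and 262.2 CPM in siCT (log2 fold change -0.40 ± 0.07, adjusted p = 0.0524 in edgeR). CD14, a co-receptor for lipopolysaccharide, was at 9.75, 12.2 and 12.4 CPM in siPDCD4 against 6.85, 8.04 and 6.52 CPM in siCT (0.68 ± 0.17, adjusted p = 0.187). Both pairs of groups were separate, in opposite directions, but these 2 genes were named for the smallest p of the list in this contrast. Groups did not overlap in CPM for 11 of the 42 genes, against 13.9% of all tested genes.

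The partners of individual members were counted in the same way. Of 13 tested complement genes, the system CD59 blocks, 6 were above and 7 below 0 with a median of -0.05. None passed in edgeR or limma-voom and 2 did in DESeq2. Of the 13, 3 had an unadjusted p under 0.05 in edgeR, against 8.62% of all tested genes. On the log2 scale C5, the start of the terminal pathway, differed by 0.70 ± 0.17 (adjusted p = 0.154) and the fluid-phase inhibitor CLU by 0.73 ± 0.25 (adjusted p = 0.383). Of 5 tested nicotinic receptor subunits, 1 was above and 4 below 0, and none passed by any of the 3 tools, with 1 at an unadjusted p under 0.05. That gene, CHRNA7, was low at 0.463, 0.332 and 0.664 CPM in siPDCD4 against 1.17, 1.43 and 1.69 CPM in siCT (-1.53 ± 0.40, adjusted p = 0.197), and part of it is copied in a second gene, so its counts are uncertain. CHRNA9 had 0.43 ± 0.30 (adjusted p = 0.827).

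Squamous differentiation, the setting of LY6D and LYPD3, was covered by 18 tested genes, 9 above and 9 below 0 with a median of 0.02. None passed in edgeR or limma-voom, and 1 did in DESeq2. Of the 18, 4 had an unadjusted p under 0.05 in edgeR, against 8.62% of all tested genes. KRT16, a keratin of activated keratinocytes, was at 22.7, 24.1 and 23.7 CPM in siPDCD4 against 35.4, 33.9 and 33.7 CPM in siCT (-0.55 ± 0.10, adjusted p = 0.0518), and its partner KRT6A had -0.30 ± 0.09 (adjusted p = 0.320). Interferon-stimulated genes, the programme LY6E belongs to, had 33 of 41 tested genes above 0 and 8 below, with a median of 0.18. None passed by any of the 3 tools, and 10 of the 41 had an unadjusted p under 0.05 in edgeR, against 8.62% of all tested genes. IFITM1, an antiviral membrane protein, was at 3.79, 3.22 and 4.73 CPM in siPDCD4 against 1.63, 2.17 and 0.779 CPM in siCT (1.35 ± 0.36, adjusted p = 0.213), and UBE2L6, the E2 enzyme for ISG15, had 0.52 ± 0.18 (adjusted p = 0.381). The lowest IFITM1 library was siCT replicate 3, also the lowest for LY6E.

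Over the 6 libraries, the genes whose log2 CPM ran most like that of PSCA among 12194 compared were CCBE1 (Pearson r = 0.999), SEC24A (0.997), KRT7 (0.989), SLC16A14 (0.989) and PRR14L (0.989). The 6 libraries form 2 groups that differ in PSCA, so r mostly follows that difference, and 191 genes (1.57%) had an r above 0.9. CCBE1 encodes an extracellular matrix protein of lymphatic growth, SEC24A a cargo adaptor of the COPII coat, KRT7 a keratin of simple epithelia and SLC16A14 a member of the monocarboxylate transporter family. CCBE1 was at 9.29, 10.6 and 9.03 CPM in siPDCD4, against 18.4, 21.5 and 24.4 CPM in siCT. SEC24A followed PSCA as closely with a log2 fold change of only -0.10 ± 0.08, since r does not see the size of a difference. Within the family r with PSCA was 0.856 for LY6K, 0.660 for CD59, 0.577 for LYPD3, -0.745 for LY6E and -0.779 for PLAUR.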

How the data were processed

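Total RNA was prepared with a strand-marking kit and sequenced as paired reads of 75 bases. The estimated counts per transcript were made by the authors with Salmon on a GRCh38 transcript set, and so were the deposited TPM values. Its version is not stated in the sources. Of 194142 transcripts per library, 181244 matched GENCODE release 44 by identifier and were summed to genes. The other 12898, with 5.47% to 6.21% of the counts, and long noncoding RNAs were not analysed here.

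After rounding, gene counts went into edgeR 4.0.16 under R 4.3.3 (quasi-likelihood, robust, TMM, filterByExpr, an offset for transcript length as tximport gives, group as the only factor), with Benjamini-Hochberg adjustment over 13047 genes and an FDR of 5%. CPM carry the TMM factors and length offset. Errors (±) are SE for log2 fold changes, SD for levels and shares. The SE was worked out from the edgeR test, as the absolute log2 fold change divided by the square root of its F statistic. DESeq2 1.42.0 and limma-voom (limma 3.58.1) were alternatives, with other normalisations and filters and leaving out each library. The fit was also run on counts simulated with its own dispersions and offsets, which cannot show how well the model suits these libraries. The members and gene lists were chosen with earlier results of these data known. Genes named are the members, PDCD4, the nearest protein-coding genes, the 4 most abundant other family genes, the 2 genes of each other list with the smallest p, the 5 most like PSCA, and transcripts with at least 10% of a member's counts. The rest of the chromosome 8 stretch was named after its values were seen. Promoters are from RefSeq, which matched 3 of the members.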

Additional observations from a re-analysis of the deposited data

How the results depend on the processing

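The number of genes past an FDR of 5% was 56. It was 128 with no length offset, 108 with no expression filter, 180 in DESeq2 and 102 with a replicate block, and between 17 and 40 with 1 library left out. PSCA passed in 10 of 10 other settings with all libraries (log2 fold change -0.99 to -0.93) and in 5 of 6 with 1 library left out (-1.03 to -0.89). All these fits draw on the same libraries, and PSCA was picked with this contrast known. The passes therefore describe only how the call depends on the processing and support nothing further. Without siPDCD4 replicate 1 no member passed (range 0 to 1 over the 6 such fits), with PSCA at -0.93 and an edgeR adjusted p of 0.0524. The log2 fold changes of all 5 tested members kept their sign in 16 of 16 alternatives. Same-numbered libraries correlated at 0.072, 0.117 and 0.183 in their deviations from the group means. Libraries with unlike numbers correlated at -0.193 to 0.102. These values do not settle whether the replicates were pairs, and group was kept as the only factor. The block left the count of members past the FDR at 1. Lists with no gene past the FDR had 1 in 7 alternatives for other GPI-anchored proteins, 1 in 4 for squamous genes, 1 in 2 for interferon-stimulated genes, and 1 or 2 in 2 for complement genes. The rank of PSCA in siCT was 4, and 3 with coding transcripts only. Depth limits LYPD3, LY6D and LYPD6B, with at most 54 counts per library.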
